A study of Mus musculus with 2 samples.

Results

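The genes described here carry out the presentation of peptides on MHC class I molecules, and they were followed from stem cells to erythroblasts in the fetal liver. They were chosen by name, as 9 of the 32285 genes in the files: H2-K1, H2-D1, B2m, Tap1, Tap2, Tapbp, Psmb8, Psmb9 and Nlrc5. The cells were sorted as LSK cells (negative for lineage markers, positive for SCA1 and cKIT) from the livers of mouse embryos at E14.5. The mice were of the outbred CD1 stock. One droplet library (WT, Nfkbia intact) came from a pool of 2 embryos and another (KO, lacking IκBα, the NF-κB inhibitor that Nfkbia encodes) from a pool of 3 embryos, and both genotypes carried no other stated allele or treatment. The titles call the cells LT-HSC, whereas the cell type entry and the protocol call them LSK.

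With 1 library of each genotype there was no replicate, so no test between genotypes was possible and no p-value is given. Every interval is a 95% interval that covers counting error only, and genotype, pool, litter and sex of the embryos cannot be told apart.

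An MHC class I molecule is a heavy chain (here H2-K1 or H2-D1) bound to the light chain B2m and to a peptide. The proteasome cuts cytosolic proteins into peptides, and in the immunoproteasome Psmb8, Psmb9 and Psmb10 take the places of the catalytic subunits Psmb5, Psmb6 and Psmb7. Tap1 and Tap2 form the pump that carries peptides into the endoplasmic reticulum, where tapasin (Tapbp) holds the empty class I molecule next to the pump. Nlrc5 is a transactivator of class I genes, and interferons and NF-κB are known inducers of them. Nucleated cells in general carry class I, whereas mature red cells carry little or none.

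After filtering, 3458 WT and 4417 KO cells were kept, with a median of 28065 and 19560 UMIs. A UMI marks an RNA molecule counted once, and levels are given as CPM, the UMIs of a gene scaled by all UMIs to counts per 1000000, summed over the cells of a type. Cells were assigned to types by counting marker genes, and 425 WT and 372 KO cells passed the stem cell gate, 510 and 658 were multipotent progenitors by passing no gate, and 756 and 1156 passed the erythroblast gate. The sort was not clean by transcript: 46.8% of WT and 50.5% of KO cells were erythroid by their markers, and Ly6a, which encodes SCA1, was at 29.1 and 38.4 CPM in stem cells but 0.0964 and 0.270 CPM in erythroblasts. Of the 9 stem cell markers, 5 were highest in that gate in each library. All 6 erythroblast markers were highest in their gate, whereas at most 2 of 6 were for the megakaryocyte-erythroid, early and late erythroid gates, so these steps are ranges along a path rather than separate types. For the monocyte and dendritic gate 2 of 6 in WT and 3 of 6 in KO were. Nfkbia was counted 1478 times in WT and 7 times in KO, at 13.6 and 0.0707 CPM. The libraries shared 7 barcodes, and 135 WT and 256 KO cells were called as doublets by Scrublet and kept.

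The sequences upstream of 4 members are shown because class I genes are known to be induced through short promoter elements, whose letters were searched here. All 4 lie in windows from 250 bases before to 50 after the transcript start, taken from RefSeq on GRCm38.p6, and 7 of the 9 members had such a window. Capitals mark GGGANTNCC or GGGANTTTC (κB motifs), GAAANNGAA (an interferon response motif), ATTGG (the Y box) and TGACG (the X2 box), searched on both strands. In no printed window do the capitals of different motifs overlap. Tap1 and Psmb9 are transcribed in opposite directions from a shared stretch, so the windows of these genes overlap.
H2-K1, chr17:34000298-34000597, minus strand: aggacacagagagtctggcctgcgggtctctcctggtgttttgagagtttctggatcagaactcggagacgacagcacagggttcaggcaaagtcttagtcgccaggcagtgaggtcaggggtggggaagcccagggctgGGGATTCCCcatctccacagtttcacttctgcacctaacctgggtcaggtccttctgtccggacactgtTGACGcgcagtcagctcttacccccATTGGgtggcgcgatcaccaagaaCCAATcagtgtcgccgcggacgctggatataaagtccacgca
H2-D1, chr17:35262844-35263143, plus strand: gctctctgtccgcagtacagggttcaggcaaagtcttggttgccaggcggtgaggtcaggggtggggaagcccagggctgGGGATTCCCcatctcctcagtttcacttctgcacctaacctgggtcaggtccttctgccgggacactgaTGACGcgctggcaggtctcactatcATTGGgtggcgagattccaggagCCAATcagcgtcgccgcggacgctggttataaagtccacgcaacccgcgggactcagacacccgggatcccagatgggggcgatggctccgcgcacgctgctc
B2m, chr2:122147437-122147736, plus strand: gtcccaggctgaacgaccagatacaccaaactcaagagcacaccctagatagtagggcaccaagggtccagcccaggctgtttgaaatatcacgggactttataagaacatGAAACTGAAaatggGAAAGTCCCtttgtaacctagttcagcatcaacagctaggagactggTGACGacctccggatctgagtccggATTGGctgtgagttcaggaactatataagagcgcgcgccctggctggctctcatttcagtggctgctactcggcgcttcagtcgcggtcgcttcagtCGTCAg
Tap1, chr17:34187306-34187605, plus strand: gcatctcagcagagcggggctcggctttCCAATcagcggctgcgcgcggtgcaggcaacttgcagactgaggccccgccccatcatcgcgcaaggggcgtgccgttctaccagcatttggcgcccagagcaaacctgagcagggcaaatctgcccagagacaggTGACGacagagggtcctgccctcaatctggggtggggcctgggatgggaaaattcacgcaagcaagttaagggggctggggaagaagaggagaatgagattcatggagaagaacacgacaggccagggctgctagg
The κB motif of H2-K1 and H2-D1 reads on both strands and is counted once.
H2-K1 and H2-D1 each held 1 κB motif, 2 Y boxes and 1 X2 box, and over 240 aligned bases their windows were 73.3% identical without gaps. B2m held 1 κB motif in its other form, 1 interferon response motif, 1 Y box and 2 X2 boxes. Among 32851 promoters of the same length, 5.01% held either κB form, 8.56% the interferon response motif, 37.4% the Y box, 20.8% the X2 box and 7.73% both boxes. Tap1 and Psmb9 each held 1 Y box and 1 X2 box, Tapbp held 2 Y boxes and Psmb8 held none of these letters. A match is a stretch of letters and not a binding site. Other forms of the interferon response motif were not searched, so a window without GAAANNGAA may hold another form.

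Of the members, 7 lie on chromosome 17 of GRCm38. H2-K1 spans 33996017 to 34000347 on the minus strand and H2-D1 spans 35262730 to 35267499 on the plus strand. Tapbp (33915899 to 33929292), Psmb9 (34181987 to 34187764), Tap1 (34187553 to 34197225), Psmb8 (34197721 to 34201454) and Tap2 (34203527 to 34216321) lie between or beside them. B2m lies on chromosome 2 (122147686 to 122153083), and Nlrc5 on chromosome 8 (94434356 to 94527272). In the last 500 bases of each member's reference transcripts, 0 of 411 windows of 90 bases occurred in another gene. That holds for the reference sequence, and the alleles of CD1 embryos were not analysed here.

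Among the heavy chains, H2-K1 fell from stem cells to erythroblasts in both libraries. In WT it was at 121 CPM in stem cells, 77.3 in multipotent progenitors, 67.7 in megakaryocyte-erythroid progenitors, 56.3 in early erythroid progenitors, 30.3 in late erythroid progenitors and 12.3 in erythroblasts. In KO the same types held 121, 90.2, 57.9, 46.4, 27.8 and 10.2 CPM. Stem cells were highest and erythroblasts lowest of the 9 blood cell types in both libraries. The ratio of stem cells to erythroblasts was 9.83 in WT and 11.9 in KO, a log2 difference of 3.30 (3.09 to 3.5) and 3.57 (3.35 to 3.80). Lymphoid-primed, neutrophil, and monocyte and dendritic progenitors lay between 57.6 and 67.7 CPM in WT and between 53.0 and 66.9 CPM in KO, and among these and the megakaryocyte-erythroid and early erythroid progenitors no neighbours in the order differed beyond counting error.

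H2-D1, the other heavy chain, fell less and not in step with H2-K1. Its WT levels were 97.8 CPM in stem cells, 78.2 in multipotent progenitors, 75.2 in megakaryocyte-erythroid progenitors, 94.9 in early erythroid progenitors, 64.8 in late erythroid progenitors and 42.9 in erythroblasts. In KO they were 105, 74.4, 70.3, 78.0, 53.1 and 36.4 CPM. Of the 8 pairs of neighbouring types in the order of its levels, only 1 in WT and 2 in KO were apart beyond counting error. The log2 ratio of stem cells to erythroblasts was 1.19 (1.05 to 1.33) in WT and 1.53 (1.37 to 1.69) in KO. H2-K1 made up 55.3% of the UMIs of the 2 heavy chains in WT stem cells, 37.2% in early erythroid progenitors, 31.9% in late erythroid progenitors and 22.3% in erythroblasts. In KO these shares were 53.5%, 37.3%, 34.3% and 21.8%. Counts from the 3′ end depend on each transcript, so such shares are read across cell types and not as the ratio of the heavy chains in 1 cell.

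B2m, the light chain that both heavy chains need, fell at each step from multipotent progenitors on. WT held 326 CPM in stem cells, 310 in multipotent progenitors, 231 in megakaryocyte-erythroid progenitors, 138 in early erythroid progenitors, 86.9 in late erythroid progenitors and 61.5 in erythroblasts. KO held 376, 305, 212, 114, 89.3 and 57.4 CPM. The steepest step was into early erythroid progenitors, by a log2 difference of -0.74 (-0.94 to -0.53) in WT and -0.90 (-1.12 to -0.67) in KO. Over the whole path the log2 ratio of stem cells to erythroblasts was 2.40 in WT and 2.71 in KO.

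**Figure D1:**
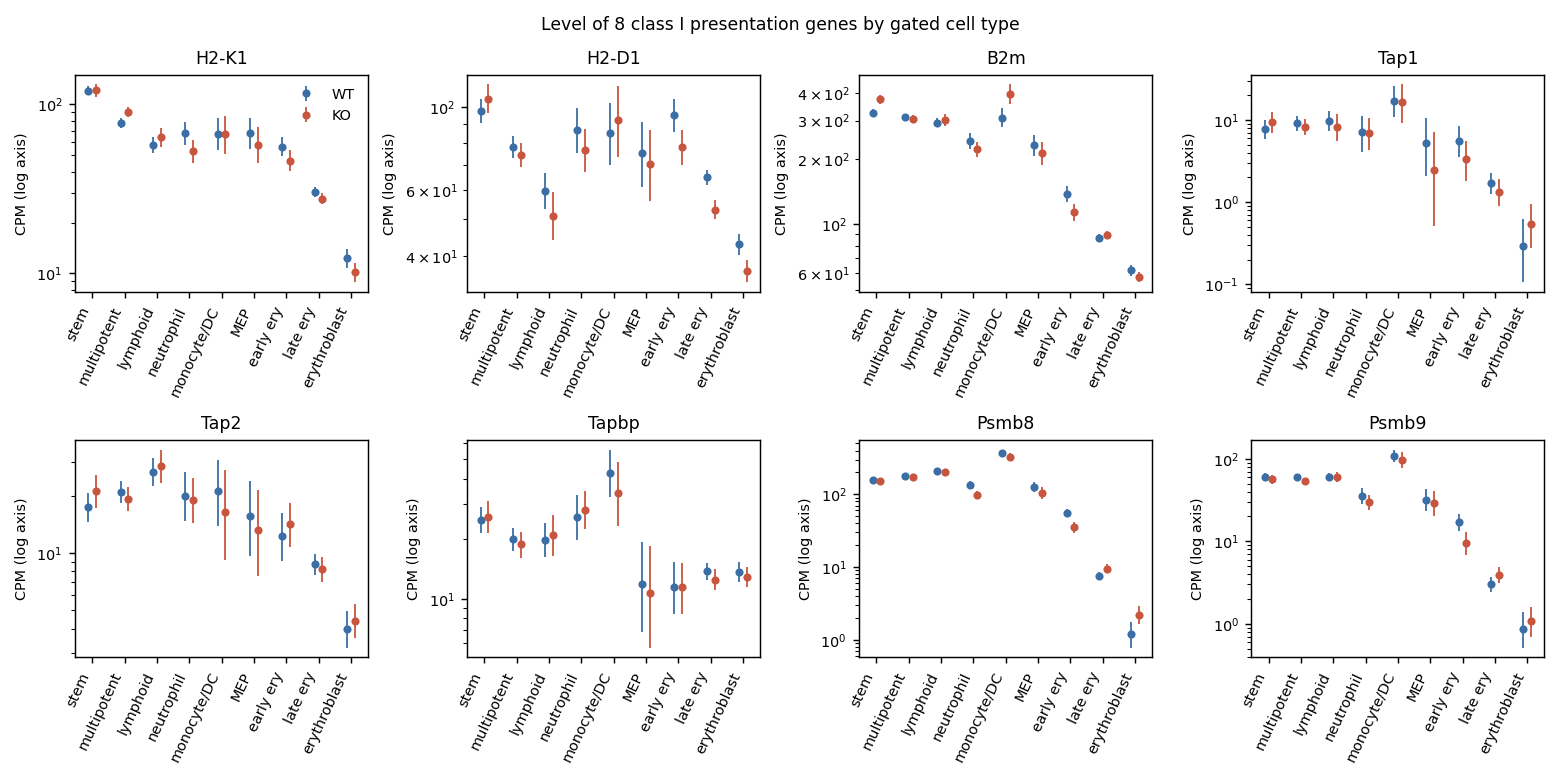
Levels of 8 members in CPM (log axis, a different range in each panel) in 9 gated blood cell types, with WT in blue and KO in red, a point for each library and bars for 95% counting intervals. DC stands for dendritic, MEP for megakaryocyte-erythroid progenitors and ery for erythroid progenitors. Psmb8 falls from 155 CPM in WT stem cells to 1.20 CPM in erythroblasts, whereas Tapbp stays between 11.5 and 42.9 CPM in WT.

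The peptide pump was counted at lower depth. Tap1 rested on 58 UMIs in WT stem cells and 6 in WT erythroblasts, at 7.80 and 0.289 CPM. In KO the counts were 45 and 12, at 9.45 and 0.539 CPM. Of the 9 blood cell types monocyte and dendritic progenitors had the highest Tap1, at 17.2 CPM in WT against 16.4 CPM in KO, though in KO the next type, stem cells, was not apart beyond counting error. Tap2, its partner, was at 17.3 CPM in WT against 21.2 CPM in KO stem cells and at 4.0 and 4.40 CPM in erythroblasts. The log2 ratio of stem cells to erythroblasts was 4.75 (3.54 to 6.26) for Tap1 in WT, 4.13 (3.19 to 5.19) for Tap1 in KO, and 2.12 (1.71 to 2.53) and 2.27 (1.85 to 2.68) for Tap2. The interval of Tap1 lay above that of Tap2 in each library.

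Unlike the other members, Nlrc5 aside, tapasin did not fall from late erythroid progenitors to erythroblasts. Tapbp was at 24.9 CPM in WT against 25.8 CPM in KO stem cells, fell to 11.5 CPM in early erythroid progenitors of both libraries, and stood at 13.8 and 12.5 CPM in late erythroid progenitors and 13.7 and 12.9 CPM in erythroblasts. From late erythroid progenitors to erythroblasts the log2 difference was -0.01 (-0.23 to 0.22) in WT and 0.05 (-0.20 to 0.29) in KO. From stem cells to erythroblasts its log2 ratio was 0.86 (0.59 to 1.13) in WT and 0.997 (0.68 to 1.31) in KO, under the 1 asked in each library. Under the other settings it lay between 0.24 and 1.08 in WT. The interval of Tapbp overlapped that of H2-D1 in WT but not in KO.

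The immunoproteasome subunits Psmb8 and Psmb9 fell by more than 5 on the log2 scale, and the intervals of Psmb9 overlapped those of Tap1 in both libraries. Psmb8, the subunit that replaces Psmb5, was at 155 CPM in WT stem cells, 177 in multipotent progenitors, 127 in megakaryocyte-erythroid progenitors, 55.0 in early erythroid progenitors, 7.57 in late erythroid progenitors and 1.20 in erythroblasts. In KO it was at 151, 174, 104, 35.2, 9.48 and 2.20 CPM. Monocyte and dendritic progenitors were highest, at 375 and 328 CPM, and lymphoid-primed progenitors came next, at 206 and 201 CPM. Of the 8 neighbouring pairs in its order, 7 were apart beyond counting error in each library. Between early and late erythroid progenitors it fell by 2.86 on the log2 scale in WT and by 1.89 in KO. The log2 ratio of stem cells to erythroblasts was 7.01 (6.44 to 7.64) in WT, from 1152 and 25 UMIs, and 6.10 (5.69 to 6.55) in KO, from 721 and 49 UMIs. Psmb9, which replaces Psmb6, ran from 60.9 and 56.5 CPM in stem cells to 0.868 and 1.08 CPM in erythroblasts, with log2 ratios of 6.13 (5.46 to 6.90) and 5.71 (5.11 to 6.38).

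Free RNA in the droplets sets a lower limit on what such values can show. Neutrophil granule genes, which erythroblasts do not make, stood in WT erythroblasts at 1.44% (1.27 to 1.62) of their level over all kept cells and in KO at 2.03% (1.84 to 2.23). Psmb8 stood there at 1.58% (1.02 to 2.33) in WT and 3.52% (2.60 to 4.65) in KO, so its WT count in erythroblasts was at background. The WT ratios and shares of Psmb8 that use this count are therefore bounds and not sizes. They cannot be ranked against those of KO. Psmb9 stood at 3.57% and 5.50%, H2-K1 at 24.8% and 22.1%, B2m at 35.8% and 34.5%, H2-D1 at 60.5% and 56.7% and Tapbp at 79.0% and 79.7%. The heavy chains, B2m and Tapbp were thus above the granule genes in erythroblasts.

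Nlrc5, the transactivator, was at the limit of detection. It was counted 7 times over all WT cells and 3 times over all KO cells. Stem cells held 3 of these UMIs in WT and 1 in KO. Erythroblasts held 0 in both, which allows up to 0.145 CPM in WT against 0.135 CPM in KO. No gradient or genotype difference of Nlrc5 was detectable at this depth.

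Of the 8 members that could be tested (at least 100 UMIs over both types and libraries), 7 were higher in stem cells, by at least 1 on the log2 scale with an interval above 0 in both libraries. Over all 9755 genes tested the share was 33%, and 6.62% were lower in stem cells by the same rule, as were 0 members. The median log2 ratio was 3.00 over the members and 0.62 in WT and 0.61 in KO over all genes. Measured against that median, H2-D1 was at 0.57 in WT and 0.92 in KO and no longer passed, and it also fell short (0.97 in WT) when haemoglobin, mitochondrial and ribosomal protein genes were left out of the total.

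**Figure D2:**
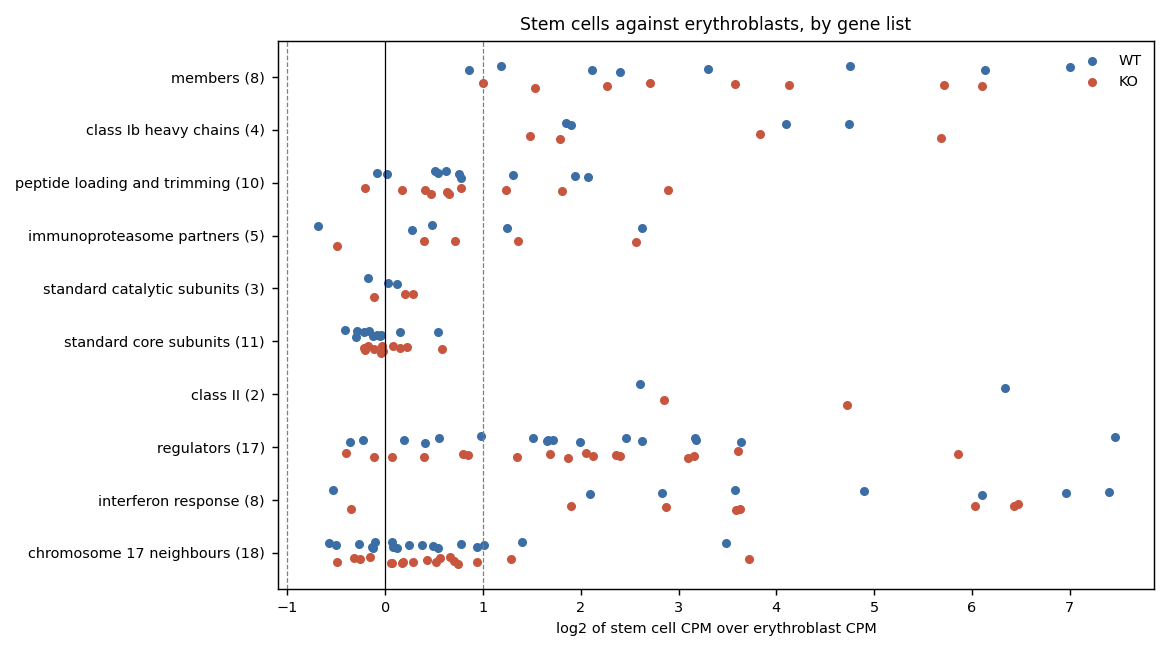
Log2 ratio of stem cell to erythroblast CPM for each tested gene, by list, with the number of genes tested in brackets, WT in blue and KO in red. Dashed lines mark 1 and -1, and Rtp4 in the interferon list is drawn at its lower bound because erythroblasts held 0 of its UMIs. The members spread from 0.86 to 7.01 in WT, the latter a bound because the erythroblast count of Psmb8 was at background. The 11 standard core subunits lie near 0.

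The other genes of the pathway were counted by the same rule, which 33% of all genes passed. Among the immunoproteasome partners 2 of 5 tested were higher in stem cells, a share near that of all genes. These were Psme1 (log2 2.63 in WT and 2.57 in KO) and Psme2 (1.25 and 1.35), which form the interferon-induced cap of the proteasome. Psme3, which forms another cap, was at -0.69 and -0.50. Psmb10, the third immunoproteasome subunit, did not follow Psmb8 and Psmb9. It rose from 105 CPM in WT stem cells to 212 in early and 235 in late erythroid progenitors and then fell to 75.5 in erythroblasts, and KO held 115, 232, 222 and 70.0 CPM.

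None of the 3 standard catalytic subunits and 0 of the 11 standard core subunits tested passed in either direction, with medians of 0.11 and -0.10. Psmb5 was at 288 CPM in WT stem cells and 283 in erythroblasts, and at 323 and 281 CPM in KO. Psmb8 was therefore 35.0% of the Psmb8 and Psmb5 UMIs in WT stem cells, 53.4% in monocyte and dendritic progenitors, 12.2% in early erythroid progenitors, 1.98% in late erythroid progenitors and 0.424% in erythroblasts. In KO these were 31.9%, 51.6%, 8.09%, 2.45% and 0.778%. Psmb10 was 40.9% of its pair with Psmb7 in WT stem cells, 55.4% in late erythroid progenitors and 30.6% in erythroblasts.

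**Figure D3:**
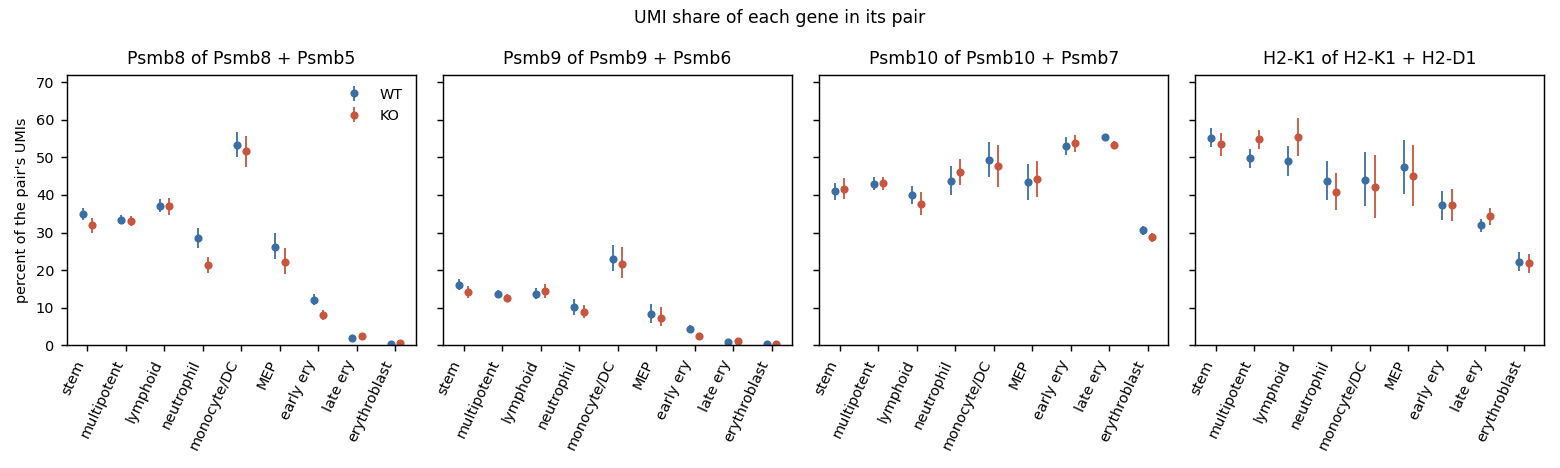
Percent of a pair's UMIs that came from the first gene named, in 9 blood cell types, WT in blue and KO in red, with 95% counting intervals. The share of Psmb8 falls from 35.0% in WT stem cells to 0.424% in WT erythroblasts, where its count is at background. In WT the share of Psmb10 is highest in late erythroid progenitors, at 55.4%. In KO it is 53.7% in early and 53.3% in late erythroid progenitors, with overlapping intervals.

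All 4 class Ib heavy chains tested were higher in stem cells. H2-M3, which presents formylated peptides, stood at 4.74 in WT and 5.68 in KO on the log2 scale, and H2-T22 was the shallowest in KO, at 1.90 and 1.48. Of the loading and trimming genes 3 of 10 passed, also near the share of all genes, which were Tapbpl, a relative of tapasin (1.94 and 2.90), Erap1, the peptidase that trims peptides in the endoplasmic reticulum (2.07 and 1.81), and Npepps (1.31 and 1.23), and the chaperone Canx was the lowest (-0.09 and -0.20). Of the class II genes 2 of 2 tested passed, H2-DMa (2.60 and 2.85) and H2-Oa, whose ratio of 6.34 (4.42 to 9.42) in WT rested on 2 erythroblast UMIs (4.73, 3.46 to 6.27, in KO). Of the regulators 11 of 17 passed. Irf1, a transcription factor induced by interferon, was at 7.46 (5.57 to 10.5) in WT, from 126 and 2 UMIs, and 5.85 (4.82 to 7.11) in KO, and Nfyc, a subunit of the factor that binds the Y box, was lowest (-0.36 and -0.40). Of the interferon response genes 7 of 8 passed, among them Ifitm1 (7.40 and 6.47), while Igtp was not called (-0.53 in WT and -0.35 in KO). By contrast 2 of 18 neighbours on chromosome 17 passed, Rgl2 (3.49 and 3.72) and Rxrb, and Kifc1 was lowest (-0.58 and -0.49).

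Cell by cell, the fall was also one in how many cells held a UMI. With every cell thinned to 5000 UMIs, H2-K1 was found in 43.0% (38.2 to 47.9) of WT and 40.1% (35.0 to 45.3) of KO stem cells and in 4.65% and 4.18% of erythroblasts. Without thinning the shares were 78.1% and 63.7% in stem cells, with a median of 16610 and 11355.5 UMIs, and 19.2% and 14.0% in erythroblasts, with 24824.5 and 17661. B2m was found in 82.1% and 82.9% of thinned stem cells and 22.2% and 21.9% of erythroblasts. Psmb8 went from 54.9% of WT stem cells to 0.398% of WT erythroblasts, and in KO from an interval of 44.7% to 55.3% to a share of 0.697%. Thinning left out 6 WT and 10 KO stem cells, and 3 and 8 erythroblasts.

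Stem cells with and without UMIs of 9 proliferation genes were also compared, as ranges of a count and not as types. At 5000 UMIs, 353 of the WT stem cells had such a UMI and 66 had none, and in KO the numbers were 327 and 35. B2m was lower in those with a UMI, by a log2 difference of -0.31 in WT and -0.58 in KO. Tapbp was lower too (-0.76 and -1.76), but in multipotent progenitors its intervals held 0 (-0.03 and -0.75). H2-D1 differed by -0.15 and -1.06 and H2-K1 by -0.11 and -0.52, with intervals that held 0 in WT alone, and the intervals of Psmb8 (-0.10 and -0.20) held 0 in both. In multipotent progenitors H2-K1 (-0.55 and -1.24), H2-D1 (-0.50 and -1.10) and B2m (-0.26 and -0.70) were lower in both libraries. Psmb8 was lower there in KO (-0.55, -0.84 to -0.25), and in WT its interval held 0 (-0.10, -0.35 to 0.16). Of the stem cells with a UMI, 56 in WT and 50 in KO had exactly 1 and so lay next to the limit.

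The comparison of KO with WT asked whether loss of IκBα went with another level of these genes. A gene was called where it had at least 100 UMIs over both libraries in a type, a log2 difference of at least 0.25 and an interval without 0. Of 81 pairs of member and blood cell type, 57 could be tested and 10 were called, 2 higher and 8 lower in KO. Over all genes 5212 of 58444 tested pairs of gene and cell type were called (8.92%). In stem cells 0 of 8 members tested were called, where 7.98% of all genes were. H2-K1 was at 121 CPM in both libraries, with a log2 difference of 0.00 (-0.15 to 0.15). B2m differed by 0.21 (0.12 to 0.29), H2-D1 by 0.11 (-0.06 to 0.27) and Psmb8 by -0.03 (-0.17 to 0.10). The interval of B2m lay above 0, but its size was under the 0.25 asked.

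Multipotent progenitors gave 0 of 8 members (9.45% of all genes), lymphoid-primed progenitors 0 of 7 (10.2%) and megakaryocyte-erythroid progenitors 0 of 4 (9.13%). In neutrophil progenitors 2 of 7 were called (9.29%), H2-K1 at -0.35 (-0.68 to -0.03) and Psmb8 at -0.45 (-0.68 to -0.22). In the same gate haemoglobin was at 541 CPM in WT and 2228 in KO and macrophage genes were at 9.96 and 24.7 CPM, and their part was not tested. In monocyte and dendritic progenitors 1 of 5 was called (12.1%), B2m at 0.36 (0.15 to 0.57), from 309 CPM in WT against 397 CPM in KO. There the granule genes were at 2219 and 1332 CPM and haemoglobin at 568 and 985 CPM, and their part was not tested.

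Early erythroid progenitors had the most calls, 4 of 6 members tested, beside 9.74% of all genes. Psmb9 was at 17.1 CPM in WT against 9.57 CPM in KO, a log2 difference of -0.84 (-1.44 to -0.26). Psmb8 differed by -0.65 (-0.96 to -0.34), H2-D1 by -0.28 (-0.50 to -0.07) and B2m by -0.28 (-0.46 to -0.10). In the same cells haemoglobin transcripts, which mark later erythroid cells, were at 709 CPM in WT against 4241 CPM in KO, and their part in these differences was not tested. With gates set on cells thinned to 5000 UMIs, 3 of these 4 differences turned over, to 1.00 for Psmb8, 0.94 for Psmb9 and 0.14 for B2m.

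In late erythroid progenitors 2 of 7 were called (7.41% of all genes), H2-D1 at -0.29 (-0.39 to -0.18) and Psmb8 at 0.33 (0.04 to 0.61). Psmb8 moved to 2.61 with gates on thinned cells and 0.95 with 1 more marker per gate. Neutrophil granule genes moved the same way as Psmb8 there, from 27.6 CPM in WT to 53.4 CPM in KO, and their part was not tested. In erythroblasts 1 of 5 was called (7.94%), H2-K1 at -0.28 (-0.54 to -0.01). Hepatocyte genes were higher in KO in all 9 blood cell types, by 0.68 to 1.52 on the log2 scale, at 21.8 to 53.4 CPM in WT and 56.2 to 105 CPM in KO.

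**Figure D4:**
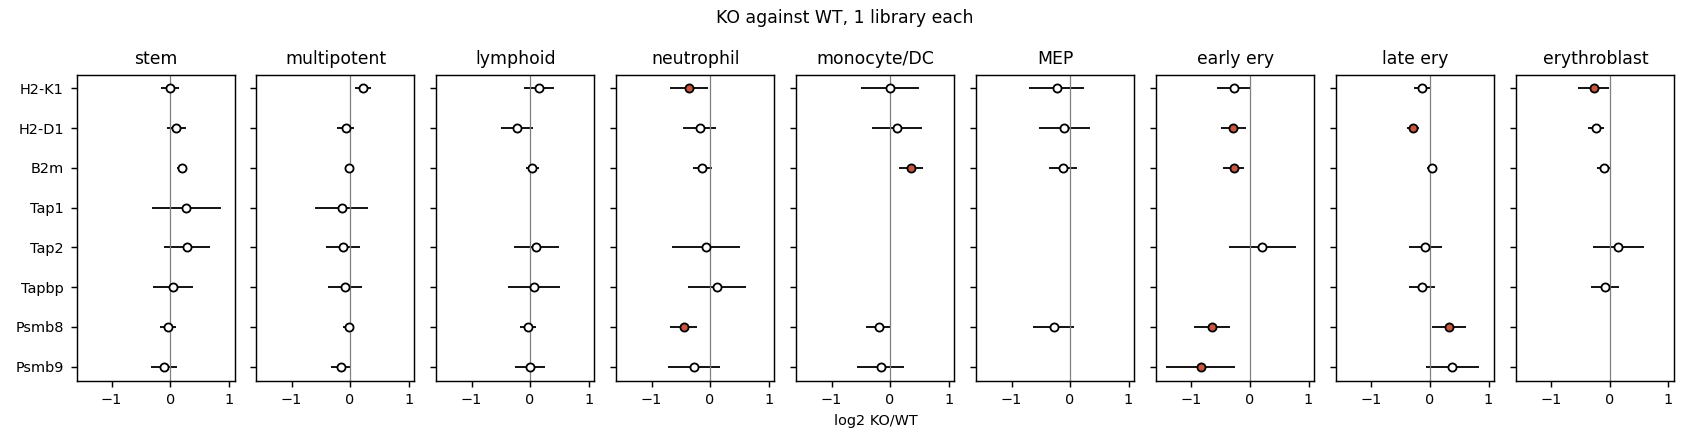
Log2 of KO over WT CPM for each tested member, 1 panel for each blood cell type, with 95% counting intervals, and filled points for those called. DC stands for dendritic, MEP for megakaryocyte-erythroid progenitors and ery for erythroid progenitors. No point is filled in stem cells, and 4 are filled, all below 0, in early erythroid progenitors.

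Over the other lists 31 of 560 tested pairs of gene and cell type were called in the 9 types (5.54%), where 8.92% of all such pairs were (5212 of 58444). The share was 9.09% for loading and trimming genes (7 of 77), 7.55% for regulators (8 of 106), 22% for interferon response genes (9 of 41), 18.2% for class II genes (2 of 11) and 3.6% for chromosome 17 neighbours (5 of 139). No call fell on a class Ib (15 tested pairs), immunoproteasome partner (45), standard catalytic (27) or core gene (99). Among the loading and trimming genes Pdia3, a disulfide isomerase of the loading complex, was lower in KO stem cells (-0.37, from 1829 and 906 UMIs) and megakaryocyte-erythroid progenitors (-0.39). Lap3, an aminopeptidase, was lower in monocyte and dendritic progenitors (-0.44). The peptidases Nrd1 (0.45) and Npepps (0.39) were higher in multipotent progenitors, Thop1 (0.33) in early erythroid progenitors and Tpp2 (0.32) in lymphoid-primed progenitors. Each of these passed in 1 or 2 of the 9 types.

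Among the regulators Nfkb1, an NF-κB subunit, was higher in KO monocyte and dendritic progenitors (0.73) and lower in megakaryocyte-erythroid progenitors (-0.64). Irf2 (0.74) and the interferon receptor chain Ifnar2 (0.39) were also higher in monocyte and dendritic progenitors. Stat2, which carries the type I interferon signal, was higher in late erythroid progenitors (0.81, from 77 and 104 UMIs), and Irf9, its partner, was lower in erythroblasts (-0.51, from 98 and 74 UMIs). Of the interferon response genes, Ifitm3, a membrane protein that restricts viruses, was higher in neutrophil progenitors (0.60) and erythroblasts (0.62) and lower in early erythroid progenitors (-0.69). Ifitm1 was higher in erythroblasts (1.07), where WT cells held 4.53 CPM, female KO cells 4.38 CPM and male KO cells (those with Y-linked transcripts) 25.8 CPM, and it was lower in early erythroid progenitors (-0.37) and in monocyte and dendritic progenitors (-0.35), and Xaf1 was higher in late erythroid progenitors (0.78). None of the 14 regulators and 7 interferon response genes tested in stem cells was called, where 7.98% of all genes were.

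Of the class II genes Cd74, the invariant chain, was at 18 UMIs in WT and 101 in KO multipotent progenitors (log2 2.64), and H2-Aa was lower in monocyte and dendritic progenitors (-0.54). Cd74 was not called in monocyte and dendritic progenitors (-0.25) and had 6 WT and 28 KO UMIs in late erythroid progenitors. Multipotent progenitors are the cells that passed no gate. The part of cells of other types or of free RNA in the Cd74 difference was not tested. Of the chromosome 17 neighbours Rgl2 (0.41) and Slc39a7 (0.37) were higher in stem cells, Vps52 (0.37) in multipotent progenitors and Wdr46 (0.37) in early erythroid progenitors.

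The KO library held cells with Y-linked transcripts, and the level of H2-K1 differed between these and the others. Cells with a Y-linked UMI and no Xist made up 17.4% of KO cells but 0.116% of WT cells. Number and identity of the male embryos are not given in the sources used here, so sex, embryo and inherited sequence cannot be told apart, and the values are of cells of 1 library. Relative to their level over all KO cells, the granule genes stood at 3.5% (2.96 to 4.09) in male late erythroid progenitors and 1.52% (1.15 to 1.96) in male erythroblasts, and H2-K1 at 4.22% (1.93 to 8.01) and 2.68% (0.871 to 6.26). The male H2-K1 counts in these types were therefore at background, and the differences, shares and ratios that use them are bounds and not sizes. In female cells H2-K1 stood at 79.6% and 29.3%. In KO late erythroid progenitors H2-K1 was at 1.93 CPM in 151 male cells and 36.5 CPM in 427 female cells, from 9 and 520 UMIs. The log2 difference was -4.24 (-5.37 to -3.30), in a type where 8.39% of all genes were called. In erythroblasts it was at 1.23 and 13.5 CPM, a log2 difference of -3.45 (-5.09 to -2.21), where 9.14% were called.

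In the other types H2-K1 was lower in male cells too, by differing amounts. It was at 88.9 CPM in male and 133 CPM in female stem cells (-0.58, -1.0 to -0.18), at 43.8 and 102 CPM in multipotent progenitors (-1.22, -1.64 to -0.83) and at 23.9 and 56.3 CPM in early erythroid progenitors (-1.24, -1.94 to -0.60). Lymphoid-primed progenitors (-2.68, -4.14 to -1.53) and megakaryocyte-erythroid progenitors (-2.11, -4.43 to -0.50) rested on 6 and 3 male UMIs. An H2-K1 UMI was found in 63.3% of 49 male and 66.1% of 283 female stem cells, but in 5.96% of male and 56.0% of female late erythroid progenitors, at a median of 30247 and 32542 UMIs. The log2 ratio of stem cells to late erythroid progenitors was 5.52 (4.5 to 6.72) in male cells, against a level at background, and 1.86 (1.68 to 2.05) in female cells. For stem cells to erythroblasts it was 6.18 (4.87 to 7.85) in male cells, also against background, and 3.30 (3.07 to 3.54) in female cells.

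In late erythroid progenitors and erythroblasts, no other member with at least 100 UMIs and a male count above background differed as much. B2m differed by -0.02 (-0.18 to 0.15) in late erythroid progenitors and by 0.37 (0.17 to 0.56) in erythroblasts. H2-D1 differed by -0.69 (-0.93 to -0.45) and -0.87 (-1.20 to -0.56), and Tapbp by -0.20 (-0.68 to 0.26) and -0.18 (-0.67 to 0.29). Psmb8 was lower in male cells at 2.36 against 8.98 CPM in late erythroid progenitors (-1.93, -2.96 to -1.04), from 11 and 128 UMIs. The male count was at background as well (3.78% of its level over all KO cells, 1.89 to 6.76). This difference is thus also a bound and cannot be ranked against that of H2-K1. In earlier types other members were lower in male cells too. H2-D1 differed by -0.65 (-1.12 to -0.21) in stem cells. Psmb8 differed by -1.51 (-2.43 to -0.71) in early erythroid progenitors, from 14 and 114 UMIs. The intervals of B2m held 0 in both types.

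**Figure D5:**
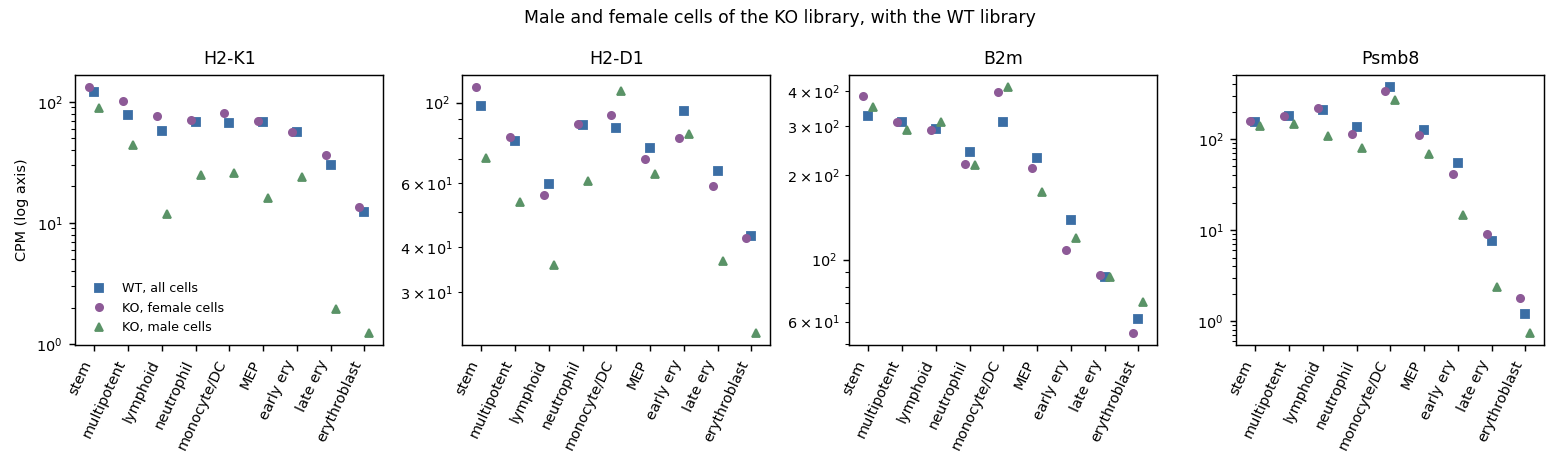
CPM (log axis, a different range in each panel) of 4 members in WT cells (blue squares) and in female (purple circles) and male (green triangles) cells of the KO library, by blood cell type. DC stands for dendritic, MEP for megakaryocyte-erythroid progenitors and ery for erythroid progenitors. H2-K1 in male late erythroid progenitors lies at 1.93 CPM, below female cells at 36.5 CPM and WT cells at 30.3 CPM, whereas B2m does not separate there. The male H2-K1 values in late erythroid progenitors and erythroblasts are at background.

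Genes with at least 100 UMIs over both and at least 2 apart on the log2 scale between male and female cells, the sex-marking genes left out, were listed after the values were seen. There were 6 in late erythroid progenitors, 4 of them on chromosome 17, where 5.12% of tested genes lie: H2-K1, Dynlt1f (-4.38), Dynlt1a (-4.13) and Rnaset2b (-3.75). The class II gene H2-Ab1 was under that count, with 1 male and 78 female UMIs in late erythroid progenitors (-4.67, -9.99 to -2.15). In erythroblasts there were 14, with 7 on chromosome 17 (5.20% of tested genes). Unlike H2-K1, Rnaset2b was also nearly absent from male stem cells, with 1 UMI against 119 in female cells, as was Dynlt1f, with 0 against 179.

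With female cells alone in both libraries, H2-K1 was not called in KO erythroblasts (0.12, -0.15 to 0.39) or neutrophil progenitors (0.05, -0.30 to 0.39). It was higher in KO multipotent progenitors (0.40, 0.25 to 0.54), lymphoid-primed progenitors (0.46, 0.20 to 0.72) and late erythroid progenitors (0.27, 0.10 to 0.42). In stem cells H2-K1 (0.15, -0.02 to 0.31) and B2m (0.248, 0.15 to 0.35) were not called. Psmb8 stayed lower in early erythroid progenitors (-0.44, -0.78 to -0.11) and B2m higher in monocyte and dendritic progenitors (0.35, 0.12 to 0.58). B2m (-0.38, -0.59 to -0.17) and H2-D1 (-0.26, -0.51 to -0.01) also stayed lower in early erythroid progenitors. In that gate haemoglobin was at 5891 CPM in female KO cells and 709 CPM in all WT cells, and its part was not tested. Psmb8 was no longer called in neutrophil progenitors (-0.18, -0.44 to 0.08) or late erythroid progenitors (0.25, -0.08 to 0.58). Nor was H2-D1 in late erythroid progenitors (-0.15, -0.27 to -0.03). Psmb9 in early erythroid progenitors (-1.02, -1.77 to -0.32) had too few UMIs in female cells to be tested.

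The members were also compared with each other over 18 points, the 9 blood cell types of both libraries, which share libraries and depth. Psmb8 and Psmb9 had a Pearson r of 0.995 and Tap1 and Psmb8 of 0.973. H2-D1 and B2m reached 0.690, and Tapbp with the others lay between 0.451 and 0.691. Against the mean profile of H2-K1, H2-D1, B2m and Psmb8, which had enough counts in every type, the most alike of 4308 genes outside the lists were Vps36 (r 0.977), Tpm3-rs7 (0.973), Capg (0.973), Grk2 (0.972), Hhex (0.971), Rpl35a (0.971), Crlf2 (0.970) and Nbdy (0.969). Among the least alike were Eif2ak1 (-0.969), Odc1 (-0.963) and Acp1 (-0.960). Odc1, an enzyme of polyamine synthesis, was at 126 CPM in WT stem cells and 560.0 CPM in WT erythroblasts.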

How the data were processed

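Single-cell RNA sequencing of LSK cells gave 1 WT and 1 KO library. The authors aligned and counted reads with Cell Ranger 6.0.0 on mm10 and deposited a matrix of unnormalised UMI counts for each library, with genes by called barcodes (3840 WT with 109122324 UMIs, 4928 KO with 100029143). Barcodes under 1000 genes or over 20% mitochondrial UMIs were dropped. Cells were gated on distinct marker genes, and cells passing several gates (12.0% and 10.5%) were left out. UMIs were summed per type and scaled to CPM. Intervals were exact Poisson intervals for levels, exact conditional (Clopper-Pearson) intervals for ratios and exact binomial intervals for shares, all at 95%. In the ratio of stem cells to erythroblasts, a count of 0 was given the limit of 3 UMIs. No test was run, since each genotype is 1 library and cells are not replicates. Doublets were called with Scrublet and kept in the main result.

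The members, lists and gates were chosen with earlier results of these data known. Named were the members in each type, the listed genes called in KO against WT (up to the 4 largest per list and direction) and the extremes per list of stem cells against erythroblasts, and the 8 genes most and 4 least like the mean member profile by Pearson r, of which 1 is not reported here. Of 15 class Ib genes 14 and of 20 chromosome 17 neighbours 19 were matched in the files. Alternatives were 9 for the ratios, 2 for list counts, 2 for shares and 1 for likeness. Scripts were tested on simulated data. Python 3.11.15, numpy 2.4.6, scipy 1.17.1, pandas 2.3.3, scanpy 1.11.5 and matplotlib 3.10.9 were used.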

Additional observations from a re-analysis of the deposited data

Results flagged for a closer look

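B2m and Psmb8 were each called in opposite directions in different cell types of KO against WT. B2m was higher in monocyte and dendritic progenitors (log2 0.36) and lower in early erythroid progenitors (-0.28). Psmb8 was lower in neutrophil progenitors (-0.45) and early erythroid progenitors (-0.65) and higher in late erythroid progenitors (0.33). In female cells alone the calls of B2m stayed (0.35 and -0.38). Psmb8 then stayed lower in early erythroid progenitors (-0.44) but was not called in neutrophil (-0.18) or late erythroid progenitors (0.25). With gates on thinned cells the early erythroid values turned over, to 0.14 for B2m and 1.00 for Psmb8. Psmb8 was then at 2.61 in late erythroid progenitors, the same sign as in early ones. With 1 library of each genotype the difference between cell types was not tested.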

How the results depend on the processing

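Each ratio was recomputed under 9 alternatives. Of the values for single genes, 581 stayed inside the interval of the main value, 70 lay outside it with the same sign or without a call, and 6 called values turned over. With gates on cells thinned to 5000 UMIs Psmb8 in late erythroid progenitors moved to 2.61, and the turned values were H2-K1 in erythroblasts (0.0213), B2m (0.14), Psmb8 (1.00) and Psmb9 (0.94) in early erythroid progenitors, and the KO against WT calls went from 10 to 5, with 183 WT and 150 KO stem cells left. With female cells alone they were H2-K1 in neutrophil progenitors (0.0452) and erythroblasts (0.12). The count ran from 7 to 11 under the other settings. Calls of stem cells over erythroblasts ran from 6 to 8, against 7. The list calls went from 31 to 13 at a log2 difference of 0.5. The H2-K1 share in WT stem cells minus erythroblasts was 38.3 percentage points at 5000 UMIs, 58.9 without thinning and 19.9 at 2000 UMIs. By Spearman rho 2 of the 8 most alike genes were shared. The causes of these shifts were not tested beyond the construction of each setting. No paired analysis was possible because WT and KO have 1 library each, both labelled replicate 1. Depth limits Nlrc5 and Tap1 most.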

Other observations

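Cells off the path from stem cells to erythroblasts were also gated. Macrophages held 97.1 CPM of H2-K1 in WT and 94.1 in KO, and 252 and 280 CPM of H2-D1, the highest H2-D1 of any gated type, and B2m was also highest there (552 and 567 CPM). In hepatocytes, from 18 WT and 40 KO cells, H2-K1 made up 84.3% (74.7 to 91.4) and 72.9% (64.7 to 80.0) of the UMIs of the 2 heavy chains, against 27.8% and 25.1% in macrophages. Psmb8 was at 3.07 CPM in WT against 5.67 CPM in KO hepatocytes, from 2 and 6 UMIs.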
